A study of Mus musculus with 19 samples.

Results

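The tibialis anterior (TA) is the muscle at the front of the lower leg, and 1 library of it was sequenced from C57BL/6J wild-type (WT) male mice, for which the labels name no treatment. It was compared with 1 library each of heart, liver, white adipose tissue, brown adipose tissue (BAT), small intestine and brain from the same kind of mice, so the muscle library is 1 of 7 tissue samples and 1 of 19 samples in the series. The library was chosen by its label alone. The other 12 samples are BAT and inguinal white adipose tissue (iWAT) of WT and MCK-Musclin mice kept at 8 °C for 1 week, with 3 libraries in each group. MCK-Musclin mice carry the coding sequence of *Musclin* (gene symbol *Ostn*) behind the promoter of the muscle creatine kinase gene *Ckm*, and the cold-exposed mice were males of 5 months. The study gives an age range for its chow-fed mice as a whole and a number of animals per genotype or treatment, and neither is stated for the tissue libraries one by one. The tissue survey served to find secreted factors that skeletal muscle makes and other tissues do not.

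Skeletal muscle is built from fibres of fast and slow types, and mouse TA is known as a muscle of mostly fast fibres. Each type uses its own genes for the myosin motor, the troponin switch that answers calcium, and the calcium pump that ends a contraction. Heart muscle uses a partly shared set of such genes, and cardiac and slow fibres have several genes in common. Muscle also secretes proteins into the blood, and Musclin, a peptide with a region like that of natriuretic peptides, is among these.

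All values are FPKM (fragments mapped to a gene, scaled by its exon length and by the depth of the library) as deposited. A fold below is (muscle FPKM + 1)/(other FPKM + 1) unless it is called a plain ratio, and a gene was counted as higher or lower when this fold was 4 or more in the stated direction. With 1 library per tissue there is no replicate check on any of these differences and no test was made. The low values of genes with a single transcript fell on steps, from which the depth was estimated at 17.8 M fragments (M, mega) for muscle and 16.2 to 18.6 M for the other 6 tissues. Of these low values 40.5% lay within 0.05 of a whole number of fragments in muscle, so the estimate is approximate. Muscle and the 5 tissues other than white adipose were extracted with TRIzol and white adipose with a commercial kit, so that tissue and method cannot be told apart there. In a bulk sample fewer cells of a type and less RNA per cell cannot be told apart either.

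The 4 genes that mark the label were all highest in the muscle library. *Tnnc2*, which encodes fast skeletal troponin C, was at 55389 FPKM in muscle. Its level was 175 in BAT, 155 in white adipose, 46.9 in brain, 5.34 in heart, 2.15 in small intestine and 0.586 in liver. *Myh4*, the myosin heavy chain of the fastest fibres, was at 16821 FPKM in muscle, 77.6 in BAT, 36.7 in white adipose, 6.96 in brain, 1.87 in heart, 0.901 in small intestine and 0.294 in liver. For both genes every other tissue was far below muscle, and muscle held 99.3% of the sum of the 7 libraries for each. *Ckm*, which regenerates ATP from creatine phosphate, was at 3969 FPKM in muscle, 345 in heart, 18.8 in BAT, 9.14 in white adipose, 1.89 in brain, 1.38 in small intestine and 0.0809 in liver. Heart is the only other tissue of the 7 with more than 20 FPKM of it. *Ostn* was at 7.43 FPKM in muscle, 0.164 in brain and 0.148 in white adipose and was listed at 0 in heart, liver, BAT and small intestine.

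The genes lie on GRCm38 at chr2:164777161-164779967 on the minus strand (*Tnnc2*), chr11:67238029-67260446 on the plus strand (*Myh4*), chr7:19404776-19422841 on the plus strand (*Ckm*) and chr16:27307489-27351212 on the plus strand (*Ostn*). Each is protein coding. Exons of *Tnnc2* overlap *Ube2c*, those of *Ckm* overlap A930016O22Rik and those of *Ostn* overlap Gm32312. Reads were counted without strand, so reads in such overlaps cannot be assigned to 1 gene with certainty.

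The 250 bases before the RefSeq start of 3 of these genes are shown because these genes mark the muscle label, and the promoter of *Ckm* is the one that drove the transgene. They are from the RefSeq promoter table of GRCm38.p6, 5′ to 3′ on the gene's strand, at chr2:164779735-164779984 (*Tnnc2*), chr7:19410844-19411093 (*Ckm*) and chr11:67237562-67237811 (*Myh4*). Capitals mark matches on either strand to CANNTG (the E box, which myogenic factors of the MyoD family bind), CAGCTG (1 form of it), CTANNNNTA (the core of the MEF2 motif), the CArG box of serum response factor, CATTCC (the MCAT element of TEAD factors) and TATAAA.
Tnnc2: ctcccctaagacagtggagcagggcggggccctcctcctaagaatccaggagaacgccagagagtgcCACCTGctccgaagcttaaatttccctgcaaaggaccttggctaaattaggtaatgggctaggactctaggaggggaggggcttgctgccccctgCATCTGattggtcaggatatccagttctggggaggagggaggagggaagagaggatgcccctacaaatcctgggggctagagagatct
Ckm: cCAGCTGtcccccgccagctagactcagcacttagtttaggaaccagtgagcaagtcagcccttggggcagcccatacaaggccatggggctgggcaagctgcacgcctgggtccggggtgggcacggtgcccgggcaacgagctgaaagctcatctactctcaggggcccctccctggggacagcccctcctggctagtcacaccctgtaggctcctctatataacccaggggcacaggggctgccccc
Myh4: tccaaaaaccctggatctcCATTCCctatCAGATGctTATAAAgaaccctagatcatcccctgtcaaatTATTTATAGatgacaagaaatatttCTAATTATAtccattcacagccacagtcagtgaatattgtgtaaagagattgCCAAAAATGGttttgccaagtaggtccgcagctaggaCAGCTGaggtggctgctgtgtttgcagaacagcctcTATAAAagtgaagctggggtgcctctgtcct
The *Tnnc2* stretch holds 2 CANNTG matches and none of the other motifs. *Ckm* shows 1 CAGCTG at its far end, and *Myh4* holds at least 1 match to each of the 6 motifs. The table has no entry under the symbols *Ostn*, *Actn3* and *Tnni2*.

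Of 14692 genes with a mean of at least 1 FPKM over the 7 libraries, 128 were at least 4-fold higher in muscle than in each of the 6 other tissues, or 0.871%. Another 144 genes (0.98%) were at least 4-fold above the 5 tissues other than heart but less than 4-fold above heart, which makes 272 genes (1.85%) without heart in the comparison. The median gene was lower in muscle than in the highest other tissue by 2.16 on the log2 scale. Among the 128 genes 49 were at least 16-fold and 18 at least 64-fold above the next tissue. The next tissue was heart for 48 genes, BAT for 30, brain for 23, white adipose for 15, small intestine for 8 and liver for 4. Protein-coding genes made up 111 of the 128, and for 41 the exons overlap those of another gene. The same rule gave 70 genes for heart, 22 for BAT, 168 for white adipose, 434 for liver, 820 for small intestine and 1161 for brain. Just inside the threshold were Gm42417 (4.02-fold) and *Mapk12* (4.11-fold), and just outside were *Chac1* (3.95-fold) and *Gapdh* (3.77-fold).

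**Figure D1:**
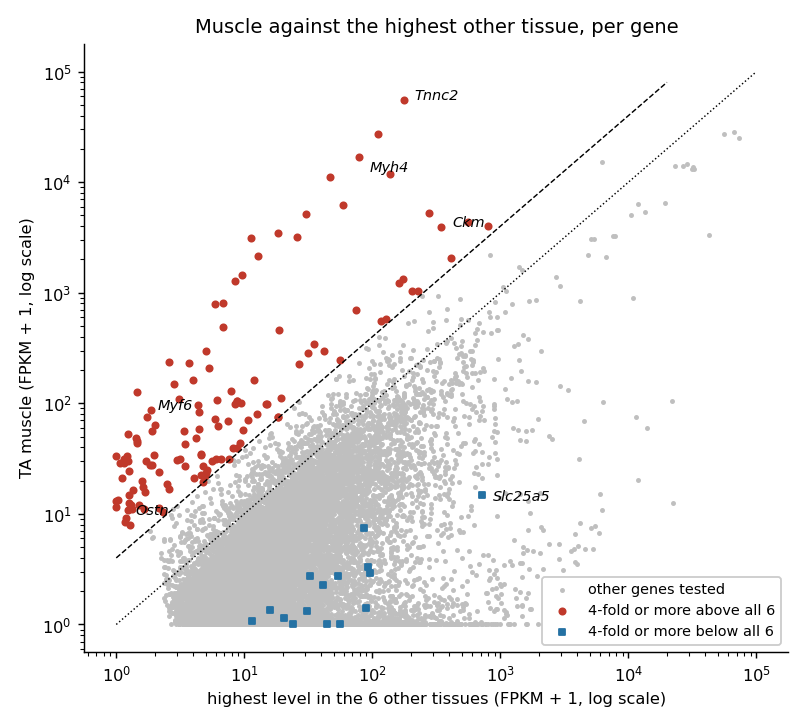
Each point is 1 of the 14692 genes, with its level in TA muscle (y axis) against the highest level in the 6 other tissues (x axis), both as FPKM + 1 on log scales. The dotted line marks equal levels and the dashed line a 4-fold excess. The 128 genes in red include *Tnnc2*, *Myh4*, *Ckm* and *Ostn*, and the 15 blue squares are at least 4-fold lower in muscle than in each other tissue.

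RNA of muscle was concentrated in few genes. Its 10 most abundant genes held 41.0% of the summed FPKM, against 51.4% in heart, 52.4% in BAT, 25.1% in liver, 21.2% in brain, 17.2% in small intestine and 17% in white adipose. The 37 mitochondrially encoded genes held 53.6% of the FPKM in heart, 53.8% in BAT and 29.2% in muscle. The 128 genes held 31.6% of the muscle total and between 0.0507% (liver) and 0.549% (heart) of the others. Muscle also had the smallest number of genes at 1 FPKM or more, 9542 against 10666 to 13795 in the other tissues. The 15 most abundant genes of muscle were the sarcomere genes *Tnnc2*, *Tnnt3*, *Myh4*, *Tpm1*, *Acta1* and *Tnni2*, the mitochondrial genes *mt-Co1*, *mt-Cytb*, *mt-Atp8*, *mt-Nd2*, *mt-Nd1*, *mt-Nd4*, *mt-Atp6* and *mt-Nd5*, and Gm10925. The last is a pseudogene record whose reads may belong to mitochondrial transcripts.

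The largest folds belonged to fast fibre genes. All 12 genes of the fast fibre sarcomere list were at least 4-fold above every other tissue, against 0.871% of all genes, and their median log2 fold over the next tissue was 7.49 against -2.16 for all genes tested. The 25 protein-coding genes with the largest fold ran from *Tnnc2* at 315-fold to *Cacna1s* at 40.9-fold, and 24 of them were on the muscle lists. BAT was the next tissue for 18 of the 25, brain for 3, and heart and white adipose for 2 each.

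*Actn3*, the α-actinin found only in fast fibres, was 275-fold above white adipose, with 3104 FPKM in muscle against 10.3 in white adipose and BAT, 1.71 in brain and 0.46 in heart. *Tnnt3* and *Tnni2*, the fast troponins T and I, were at 27391 and 11204 FPKM in muscle, 109 and 46.1 in BAT, and 3.51 and 3.12 in heart. The fast troponin genes were thus abundant in muscle and low in heart.

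Of the fast myosin heavy chains *Myh4* was the most abundant, followed by *Myh1* at 2171 and *Myh2* at 207 FPKM. *Myh2*, of the more oxidative fast fibres, had 4.32 FPKM in white adipose and 3.55 in BAT, so its fold was smaller, at 39.1. These 3 genes lie in 1 cluster and share sequence, so reads may be split between them with some error. The light chains *Mylpf* and *Myl1* were at 3479 and 6227 FPKM, and *Mylk2*, the kinase of skeletal myosin light chain, was at 235. *Mybpc2*, the fast myosin-binding protein C, was at 1275 FPKM, while its relative *Mybph* was at only 9.83. Heart had 5.04 FPKM of *Mybpc2* and none listed for *Mybph*.

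**Figure D2:**
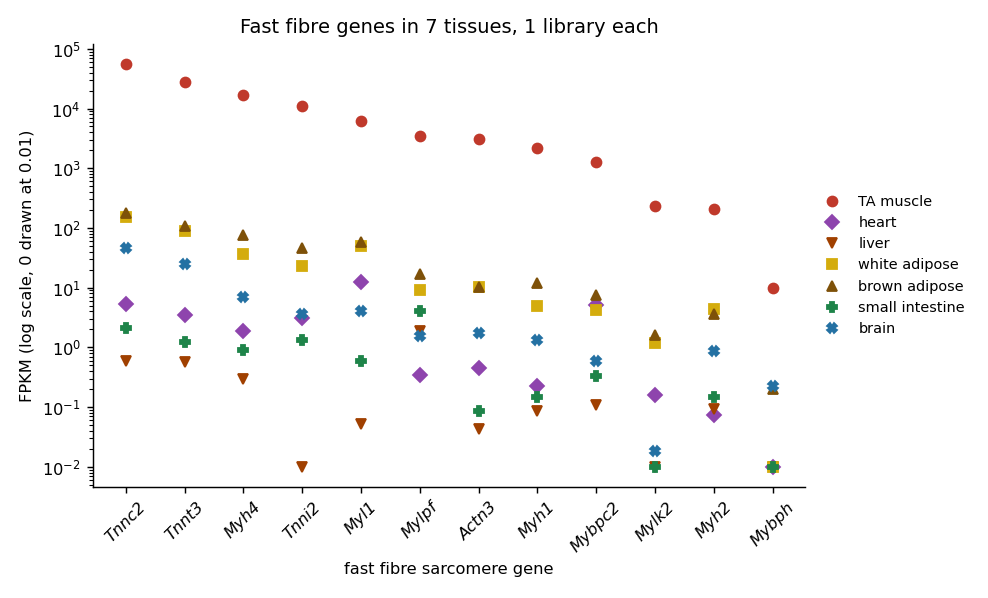
The plot gives the FPKM (log scale) of the 12 fast fibre sarcomere genes, ordered by their muscle level, with 1 symbol per tissue library and values of 0 drawn at 0.01. The muscle point is the highest for each gene, from 55389 for *Tnnc2* to 9.83 for *Mybph*. An adipose library comes next for each gene but *Mybph*, for which it is brain.

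Low levels of fast fibre genes were listed in the other tissues: all 12 were above 0 in BAT and brain, while 1 was at 0 in heart, 1 in white adipose, 2 in small intestine and 3 in liver. As a share of the muscle level, the median of the 12 genes was 0.519% in BAT, 0.301% in white adipose, 0.058% in brain, 0.0138% in heart, 0.00603% in small intestine and 0.00155% in liver. Their summed level was 518 FPKM in BAT and 388 in white adipose against 127513 in muscle. Where this RNA came from was not tested.

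Slow fibre and cardiac sarcomere genes were mostly highest in heart or shared with it. Of 17 genes 1 was at least 4-fold above every other tissue (0.871% of all genes), 6 were 4-fold above all but heart (0.98% of all genes), and in 12 heart was at least 4-fold above muscle. The median log2 fold over the highest other tissue was -5.08, against -2.16 for all genes tested. The 1 gene was *Mybpc1*, the slow myosin-binding protein C, at 486 FPKM in muscle and at most 5.81 elsewhere. Muscle thus carried a C protein named for slow fibres at high level while the slow motor and thin filament genes were low. *Myh7*, the slow and β-cardiac myosin heavy chain, was at 8.41 FPKM in muscle, under the 13.1 of white adipose, 16.7 of brain, 9.29 of BAT and 251 of heart. The slow troponins *Tnnc1*, *Tnni1* and *Tnnt1* were at 14, 1.09 and 14.7 FPKM in muscle. *Myl2* and *Myl3*, the ventricular and slow light chains, were at 12.1 and 68.4 against 1656 and 4536 in heart.

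Where skeletal muscle and heart use different members of a gene pair, muscle and heart were mirror images. For troponin C, muscle had 3954 times as much *Tnnc2* as *Tnnc1*, and heart had 264 times as much *Tnnc1* as *Tnnc2*, as plain ratios of FPKM. For troponin T, *Tnnt3* was 368 times *Tnnt2* in muscle, and *Tnnt2* was 3248 times *Tnnt3* in heart. The calcium pump genes *Atp2a1* and *Atp2a2* stood at 5172 and 9.28 FPKM in muscle and at 1.04 and 1709 in heart. The release channels *Ryr1* and *Ryr2* stood at 231 and 0.0475 FPKM in muscle and at 0.0184 and 99.0 in heart. The same order held for each of the 11 pairs examined.

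The pairs were not equally complete. *Acta1* and *Actc1*, the skeletal and cardiac α-actins, were at 11741 and 50.2 FPKM in muscle and at 136 and 2402 in heart, so heart kept the skeletal gene at 1 part in 17.6 of the cardiac one. *Actn3* exceeded *Actn2* by only 18.0 times in muscle, because *Actn2*, the α-actinin of all fibre types and heart, was at 172 FPKM there. *Myoz1* was at 794 FPKM in muscle and was listed at 0 in heart, whereas *Myoz2* was at 20.3 in muscle and 722 in heart. A large excess of one gene thus came with a measurable trace of the other in most pairs.

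**Figure D3:**
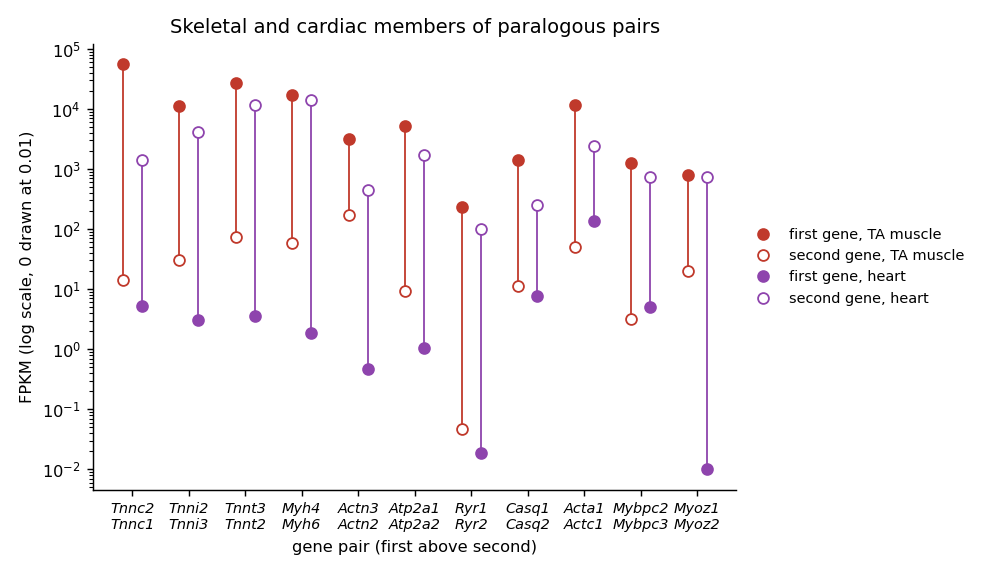
For 11 pairs of related genes the plot gives the FPKM (log scale, 0 drawn at 0.01) of the first and the second gene, as filled and open points, in TA muscle (red) and heart (purple), joined by a line. In muscle the first gene is above the second in each pair and in heart the second is above the first, as for *Tnnc2* and *Tnnc1* at 55389 and 14 in muscle and 5.34 and 1411 in heart.

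Z disc, M band and thin filament genes were shared with heart more often than fast fibre genes. Of 30 genes 10 were at least 4-fold above every other tissue (0.871% of all genes) and 16 were at least 4-fold above all but heart (0.98% of all genes). The median log2 fold was 1.27 over the highest other tissue (-2.16 for all genes tested) and 5.14 over the highest tissue other than heart. The giant proteins divided along this line. *Neb*, which encodes the ruler of the skeletal thin filament nebulin, was at 800 FPKM in muscle, 5.78 in BAT, 5.42 in liver and 1.74 in heart. *Ttn*, for titin, was at 76.8 in muscle and 40.9 in heart and at most 1.25 in the rest. *Myom1* and *Myom2* of the M band were at 343 and 367 FPKM in muscle against 321 and 383 in heart, which is a fold of 1.07 and 0.958.

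*Myoz1*, *Myoz3* and *Myot* of the skeletal Z disc were at 794, 42.6 and 459 FPKM in muscle, and heart had 17.7 of *Myot* and was listed at 0 for both *Myoz* genes. *Tpm2*, a tropomyosin, was at 5248 FPKM in muscle and 274 in small intestine, whose smooth muscle also uses it, while *Tpm1* was at 15149 in muscle and 6236 in heart. *Ankrd2*, a stretch-responsive gene, was 14.4-fold above the next tissue. Heart was at least 4-fold above muscle for *Lmod2* (690 against 76.4 FPKM) and for *Csrp3* (493 against 8.35), both genes of the cardiac sarcomere.

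Genes that couple the nerve signal to calcium release were high in muscle as a group. Of 24 tested genes 13 were at least 4-fold above every other tissue (0.871% of all genes) and 4 more were shared with heart (0.98% of all genes). In all 19 were highest in muscle, where 821 of all 14692 genes tested were. The median log2 fold over the highest other tissue was 2.77, against -2.16 for all genes tested. *Cacna1s*, the voltage sensor of the T tubule, was at 161 FPKM in muscle, 2.96 in heart, 1.10 in BAT and under 1 in the other tissues. Its partners *Cacng1* and *Stac3* were at 85.7 and 150 FPKM and at most 1.84 elsewhere. *Ryr1* was 62.3-fold above brain, the next tissue, and *Jsrp1*, a protein of the junctional membrane, was 58.7-fold above brain. Subunits that the sensor shares with other channels behaved differently: *Cacna2d1* was at 28.2 FPKM in muscle, 27.0 in heart and 20.7 in brain, and *Cacnb1* was at 57.8 in muscle and 36.5 in brain.

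For calcium handling, *Casq1*, the calcium store of fast fibres, was at 1437 FPKM in muscle and 8.60 in BAT. *Pvalb*, the soluble calcium buffer of fast fibres and of certain neurons, was at 3213 in muscle, 24.7 in brain, 14.9 in BAT and 0.698 in heart. *Trdn*, which anchors the store to the channel, was at 1045 in muscle and 225 in heart. The small regulators of the calcium pump differed between muscle and heart. *Mrln*, for myoregulin, was at 11.7 FPKM in muscle and 0.129 in heart, *Pln*, for phospholamban, was at 4.42 and 324, and *Sln*, for sarcolipin, was at 0.128 and 0.645 and too low to be tested. The sodium and chloride channels of the fibre membrane, *Scn4a* and *Clcn1*, were at 55.1 and 47.1 FPKM in muscle and at 2.37 and 3.23 in heart.

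**Figure D4:**
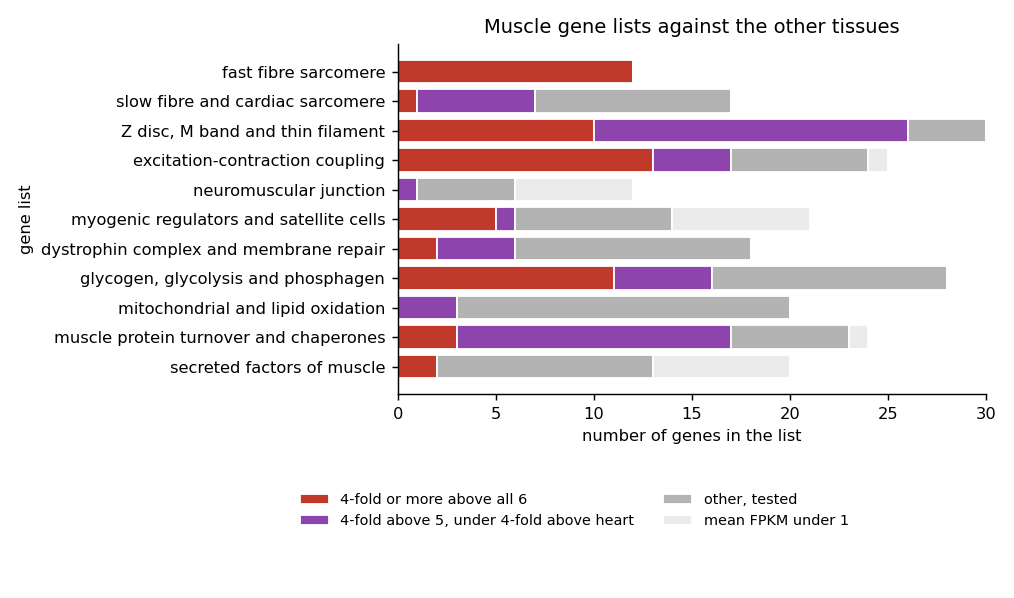
Bars count the genes of 11 muscle lists, as the number at least 4-fold above all 6 other tissues (red), at least 4-fold above 5 tissues but under 4-fold above heart (purple), other tested genes (grey) and genes with a mean under 1 FPKM (pale). Red fills the fast fibre list (12 of 12), red and purple fill 26 of 30 in the Z disc list, and the mitochondrial and lipid oxidation list has no red part.

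Over the 11 muscle lists, 59 of 205 tested genes (28.8%) were at least 4-fold above every other tissue, against 0.871% of all genes. Another 54 were shared with heart by the rule above (0.98% of all genes), leaving 92. The other 69 of the 128 genes were on none of these lists.

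The 12 genes of the neuromuscular junction, where the motor nerve contacts the fibre, summed to 37.4 FPKM in muscle. Of these 6 had a mean under 1 FPKM. None of the 6 tested was at least 4-fold above every other tissue, a share near that of all genes (0.871%). Of the 6 tested 4 were highest in muscle, where 821 of all 14692 genes tested were. In 1 another tissue was at least 4-fold higher, as it was for the median gene of all those tested (log2 fold -2.16). The acetylcholine receptor subunits *Chrna1*, *Chrnb1*, *Chrnd* and *Chrne* were at 1.80, 4.08, 1.04 and 2.75 FPKM in muscle, and the fetal subunit *Chrng* was listed at 0 in all 7 libraries. *Chrna1*, *Chrnd* and *Chrne* were listed at 0 in heart. *Musk*, the receptor kinase that organizes the junction, was at 1.30 and *Rapsn*, which clusters the receptors, at 9.69 against 3.10 in heart. At these levels adding 1 to each value holds the fold down.

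Among 14 tested myogenic regulators and satellite cell genes, 5 were at least 4-fold above every other tissue (0.871% of all genes). Highest in muscle were 12, where 821 of all 14692 genes tested were. *Myf6*, the family member of mature fibres, was at 74.3 FPKM in muscle and 0.727 in white adipose and was listed at 0 in the other 5 tissues. This stands for an estimated 1668 fragments in muscle and 15 in white adipose. *Myod1* was at 8.11 FPKM, from an estimated 268 fragments, and at 0.183 in heart, from 6, a plain ratio of 44.2 (95% interval 20.1 to 122, counting error only). *Myog* was at 2.05, *Pax7*, the marker of satellite cells, at 0.0477, and *Myf5* was listed at 0. *Myf6* was thus the most abundant of the MyoD family in this library. *Tbx15*, a T-box factor, was at 109 FPKM in muscle and 2.08 in BAT, and *Vgll2*, a TEAD cofactor, was at 45 and 0.464. *Eya4*, a transcriptional coactivator, was 4.46-fold above brain. The general factors *Mef2a* and *Mef2d* were at 31.9 and 127 FPKM in muscle, against 24.8 in white adipose and 117 in brain, the next tissues. *Ppargc1a*, a driver of mitochondrial genes, was at 3.85 FPKM in muscle, under 20.0 in heart, 12.8 in brain and 9.17 in BAT.

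The dystrophin complex, which ties the fibre to its matrix, had few members 4-fold above every other tissue. Of 18 genes 2 were (0.871% of all genes) and 4 were shared with heart (0.98% of all genes). Highest in muscle were 5, where 821 of all 14692 genes tested were. The median log2 fold over the highest other tissue was -0.57, against -2.16 for all genes tested. The 2 genes 4-fold above every other tissue were *Capn3*, a muscle protease, and *Ano5*, a protein of membrane repair. *Capn3* was at 33.2 FPKM and under 1 in each other tissue, and *Ano5* was at 18.9 and at most 0.576. *Sgca* of the sarcoglycans was at 40.3 FPKM in muscle, 26.4 in heart and under 1 elsewhere. *Dmd* itself was at 5.07 in muscle, 8.81 in heart, 11.2 in small intestine and 16.3 in liver, and *Utrn*, its widespread relative, was at 3.38 in muscle and 54.1 in white adipose. The *Dmd* gene gives short transcripts in many tissues and FPKM per gene does not separate them.

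Glycogen and glycolysis genes were high almost throughout. Of 28 genes 11 were at least 4-fold above every other tissue (0.871% of all genes) and 5 were shared with heart (0.98% of all genes). In all 25 were highest in muscle, where 821 of all 14692 genes tested were. The median log2 fold over the highest other tissue was 1.57, against -2.16 for all genes tested. The steps from glycogen to glucose phosphate were well represented: *Pygm*, muscle glycogen phosphorylase, was at 1324 FPKM in muscle and 173 in heart, and its kinase subunits *Phka1* and *Phkg1* were 19-fold and 16.5-fold above the next tissue. The glycolytic genes with a muscle form were high in muscle and next in heart. *Pfkm* was at 1039 and 204 FPKM, *Pgam2* at 4043 and 797, and *Eno3* at 2083 and 411. *Aldoa* was at 4373 in muscle, 553 in heart, 473 in BAT and 469 in brain. Smaller folds were seen for *Gapdh*, 3.77-fold above heart, *Pgk1*, 1.63-fold above BAT, and *Ldha*, 1.80-fold above small intestine. *Slc16a3*, which exports lactate, was at 71.3 FPKM in muscle, 4.94 in small intestine and 0.0257 in heart.

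In purine and phosphagen metabolism, *Ampd1*, the muscle AMP deaminase, was at 127 FPKM in muscle and at most 0.462 elsewhere, an 87.3-fold difference. Mitochondrial creatine kinase *Ckmt2* was at 831 in muscle and 911 in heart, whereas the cytosolic form *Ckm* was 11.5-fold above heart. *Slc2a4*, the insulin-responsive glucose carrier, was at 106 in muscle, 72.1 in heart and 69.7 in BAT. The 3 genes of the list that were higher elsewhere were *Fbp2* (111 FPKM in small intestine, 13.9 in muscle), *Slc6a8* (81.0 in small intestine, 14.9 in muscle) and *Ckmt2*.

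Of 20 mitochondrial and lipid oxidation genes 3 were highest in muscle, where 821 of all 14692 genes tested were. None of the 20 was at least 4-fold above every other tissue, a share near that of all genes (0.871%). Shared with heart were 3, *Cox6a2*, *Slc25a4* and *Mb* (0.98% of all genes). In 10 some other tissue was at least 4-fold higher, as it was for the median gene of all those tested. The median log2 fold over the highest other tissue was -1.95, near the -2.16 of all genes tested. BAT or heart led most of them. *Acadl*, for fatty acid oxidation, was at 170 FPKM in muscle, 551 in heart and 1199.7 in BAT, and *Cpt1b*, which admits fatty acids to mitochondria, was at 45.5, 90.1 and 154. *Mb*, for myoglobin, was at 2122 in muscle, 6733 in heart and at most 13.9 elsewhere. *Fabp3* was at 196 in muscle, 1451 in heart and 705 in BAT. *Ucp3* was the gene of the list with the largest fold in muscle, 1.35 over BAT.

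Protein turnover and chaperone genes were of the kind shared with heart. Of 23 tested genes 14 were 4-fold above all but heart (0.98% of all genes). Another 3 were 4-fold above heart as well (0.871% of all genes). The ubiquitin ligases *Trim63* (MuRF1) and *Fbxo32* (atrogin-1), which act in wasting, were at 81.5 and 32.7 FPKM in muscle and 68.6 and 21.4 in heart. *Asb5* and *Asb16* were 10.5-fold and 11.1-fold above the next tissue, and *Hspb3*, a small heat shock protein, 4.90-fold. *Hspb7* and *Cryab*, by contrast, were higher in heart, at 1897 and 304 FPKM against 154 and 109 in muscle.

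Of 20 secreted factors ascribed to muscle 13 were tested. The only 2 of them highest in muscle were *Ostn* and *Mstn*, where 821 of all 14692 genes tested were highest in it. Both were also at least 4-fold above every other tissue (0.871% of all genes). Both passed the filter only through their muscle level, and the study picked Musclin partly for restricted expression in skeletal muscle. Nothing is therefore read from these 2 counts. *Musk* and *Fgf6*, which were not tested, were highest in muscle as well. The median log2 fold of the list over the highest other tissue was -1.73, against -2.16 for all genes tested. *Mstn*, for myostatin, which limits muscle growth, was at 10.04 FPKM in muscle, 0.32 in small intestine, 0.159 in BAT and 0.0419 in heart and was listed at 0 in the other 3. *Fgf6*, another muscle growth factor, was at 1.16 in muscle and 0.0974 in heart, too low on average to be tested. *Fndc5*, the precursor of irisin, was at 20.4 in muscle, below 69.9 in heart and 24.4 in brain. *Il15* was at 2.18 FPKM in muscle and 5.46 in heart, *Metrnl* was at 1.72 in muscle and 16.9 in small intestine, and *Il6* was listed at 0 in muscle. *Sparc* and *Dcn*, which connective tissue makes, were at 64.4 and 63.9 in muscle and 913 and 564 in white adipose. *Igf1* was at 1.41 in muscle and 254 in liver.

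The level of *Ostn* rests on an estimated 188 fragments in muscle, for which counting error alone gives 6.41 to 8.57 FPKM (95% Poisson interval). The values in brain and white adipose stand for about 4 and 3 fragments. The plain ratio of muscle to brain was 45.2 with a counting interval of 17.4 to 168, and that to white adipose was 50.1 with 19.4 to 282. In heart, liver, BAT and small intestine a count of 0 allows up to 3 fragments, so muscle was at least 62.3, 63.6, 65.7 and 57.2 times higher. *Ostn* was far less abundant than the sarcomere genes, and its fold with 1 added, 7.24, understates its plain ratio.

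Markers of other tissues were low in the muscle library, with exceptions. All 8 intestinal genes, among them *Vil1* and *Fabp2*, were listed at 0. The brain markers *Snap25*, *Syt1*, *Gad1*, *Mog* and *Olig2* were listed at 0, while *Aqp4*, a water channel that fast fibres also carry, was at 7.62 FPKM against 28.0 in brain. The 8 liver markers were all above 0, between 0.152 FPKM (*Cps1*) and 11.6 FPKM (*Alb*), which is 0.0267% to 0.126% of their liver level. Of the 15 cardiac genes 13 were at least 4-fold higher in heart, and *Nppb*, *Nkx2-5* and *Myl7* were listed at 0 in muscle. The other 2 were *Sbk2*, a kinase gene at 38.6 FPKM in muscle, 7.78 in BAT and 3.92 in heart, which is 1 of the 128 genes, and the light chain *Myl4*, at 8.59 in muscle and 12.7 in heart. *Myh6* and *Tnnt2* were nevertheless at 58.7 and 74.4 FPKM, or 0.417% and 0.652% of heart, and above every tissue but heart. Over the 13 cardiac genes with at least 5 FPKM in heart the median was 0.483% of the heart level. Where the cardiac and liver RNA in the muscle library came from was not tested.

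Among cells that muscle tissue holds, blood vessel and macrophage genes were not highest in muscle. The 8 endothelial genes summed to 78.7 FPKM in muscle, with *Cdh5* the highest at 35.9, which lay below heart (174), BAT (263) and white adipose (315) and above small intestine (48.3), liver (46.9) and brain (34.4). The 8 macrophage genes summed to 23.5 FPKM, the lowest sum of the 7 tissues, *Lyz2* leading at 12.7, and *Adgre1* was listed at 0. Of the adipocyte markers *Ucp1* and *Retn* were listed at 0 and *Adipoq* was at 0.393 against 1699 in white adipose, so that only *Fabp4*, which capillaries also express, was sizeable at 102. The 10 tendon and connective tissue genes summed to 133 FPKM in muscle and 717 in white adipose. Of the 7 tested 1 was highest in muscle, where 821 of all 14692 genes tested were. Their median log2 fold over the highest other tissue was -2.42, against -2.16 for all genes tested. The 1 gene was *Thbs4*, a protein of tendon and muscle matrix, at 29.7 against 1.97 in brain, a 10.4-fold difference. *Fmod*, another tendon protein, was at 29.0 against 45.7 in white adipose. *Des*, for desmin, was listed with smooth muscle but is a general muscle gene, and it was at 876 in muscle, 482 in heart and 77.4 in small intestine. The 9 genes of the smooth muscle list, *Des* included, summed to 956 FPKM in muscle. Only 1 of them was listed at 0, *Actg2*, which visceral smooth muscle makes.

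Only 15 genes (0.102%) were at least 4-fold lower in muscle than in each of the 6 other tissues, and this count depended on the scale. It was 369 with 0.1 added in place of 1, 131 without heart, 8 with median-ratio scaling and 6 with quantile normalization. Under both of these scalings *Slc25a5*, *Pkp4*, *Tuba1c*, *Zfp809*, *C1qa*, *Mt1*, *Fcer1g*, *Cdk2ap2*, *Rabgap1l* and *Rps4l* were no longer counted, nor was *Acsf2* under the second. After each library was rescaled to the same sum without mitochondrial genes the split between higher and lower genes moved from 128 and 15 to 142 and 167. Muscle was the lowest of the 7 libraries for 4753 of the 14692 genes, against 268 to 3118 in each other tissue.

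*Slc25a5*, which carries ADP and ATP across the mitochondrial membrane, was at 13.7 FPKM in muscle, 81.5 in brain, 83.6 in heart, 128 in white adipose, 190 in BAT, 245 in liver and 719 in small intestine. Its muscle and heart form *Slc25a4* was at 1609 in muscle and 1480 in heart. *Slc25a5* was thus the less abundant form in both, and lowest in muscle. *Acsf2*, an acyl-CoA synthetase, was at 0.412 FPKM in muscle and 8.11 to 88.4 in the other tissues. *Magi3* and *Pkp4*, proteins of cell junctions, were at 0.144 and 1.77 against at least 5.30 and 12.7. *Tuba1c*, an α-tubulin, was at 2.33 against at least 15.1, and *Mt1*, a metallothionein, was at 6.45 against at least 31.6. *C1qa* and *Fcer1g*, which macrophages express, were at 1.92 and 0 FPKM against at least 12.3 and 3.08. The others of the 15 were *Zfp809*, *Trp53i11*, *Cdk2ap2*, *Rabgap1l*, *Rps4l*, Gm24201 and CAAA01147332.1.

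In promoters, 94 of the 128 genes matched the RefSeq table by symbol. Within 250 bases before the start, CAGCTG was found in 33.0% of these genes and 27.1% of the 96 matched genes shared with heart, against 14.7% of all 27025 genes of the table. CANNTG stood in 83.0%, 81.2% and 69.3%, CTANNNNTA in 29.8%, 41.7% and 21.4%, CATTCC in 23.4%, 22.9% and 14.4% and TATAAA in 19.1%, 20.8% and 14.3%. The CArG box was rare, in 3.19% of the 94 genes, 6 of the 96 and 1.62% of the table. CAGCTG is a case of CANNTG, both strands were searched, and a gene with several starts counts when any of them has a match. Among the 11017 matched genes of those tested, the shares were 14.7% for CAGCTG, 62.9% for CANNTG and 16.3% for CTANNNNTA. They were 13.1% for CATTCC, 8.91% for TATAAA and 1.47% for the CArG box. For each of the 6 motifs both muscle groups had a higher share than the tested genes and the table as a whole, which is a description with no test.

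The cold-exposed WT adipose libraries gave 3 replicates of the low side of the comparison, in tables normalized separately from the 7 tissues. All 128 genes were in the BAT table, and 126 were at least 4-fold below the muscle level in each of the 3 WT libraries (98.4%), against 3.94% of the 14680 tested genes in that table. The 128 genes had been chosen as 4-fold above BAT and white adipose with the same muscle library, so nothing is read from the difference. The other 2 were *Aldoa*, at 1967, 1801 and 1663 FPKM in cold BAT against 4373 in muscle, and *Tpbgl*. The iWAT table has 82 of the 128 genes, and 78 were at least 4-fold below muscle in each WT library (95.1%), against 2.36% of 12256 genes. The 4 others were *Hoxc10*, *Ybx3*, *Prkcq* and *Tbx1*. *Hoxc10*, a homeobox gene of the hind body, was at 27.8, 20.2 and 23.8 FPKM in WT iWAT against 55.1 in muscle, although white adipose of the 7-tissue table had 0.89 and BAT none listed.

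The fast fibre genes varied between adipose libraries of 1 group. *Tnnc2* was at 1.96, 278 and 1829 FPKM in the 3 WT iWAT libraries and at 3.09, 55.6 and 74.3 in those of MCK-Musclin mice. In BAT it was at 180, 250 and 145 FPKM in WT and at 552, 247 and 374 in MCK-Musclin mice. The iWAT values thus differed widely within the WT group, and the groups overlapped in both tissues. The sum over the 11 fast fibre genes present in each table was 43.8, 825 and 4442 FPKM in WT iWAT, or 0.0343%, 0.647% and 3.48% of the muscle library. Between 0.375% and 0.597% of the muscle sum was present in WT BAT and 0.605% to 1.36% in BAT of MCK-Musclin mice. The BAT library of the 7-tissue table had 0.406%.

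*Ostn* was listed at 0 in each WT BAT library. The muscle library had only 0.000134 FPKM of *Ostn* per FPKM of *Tnnc2*, so nothing about that proportion can be read from the 0.

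**Figure D5:**
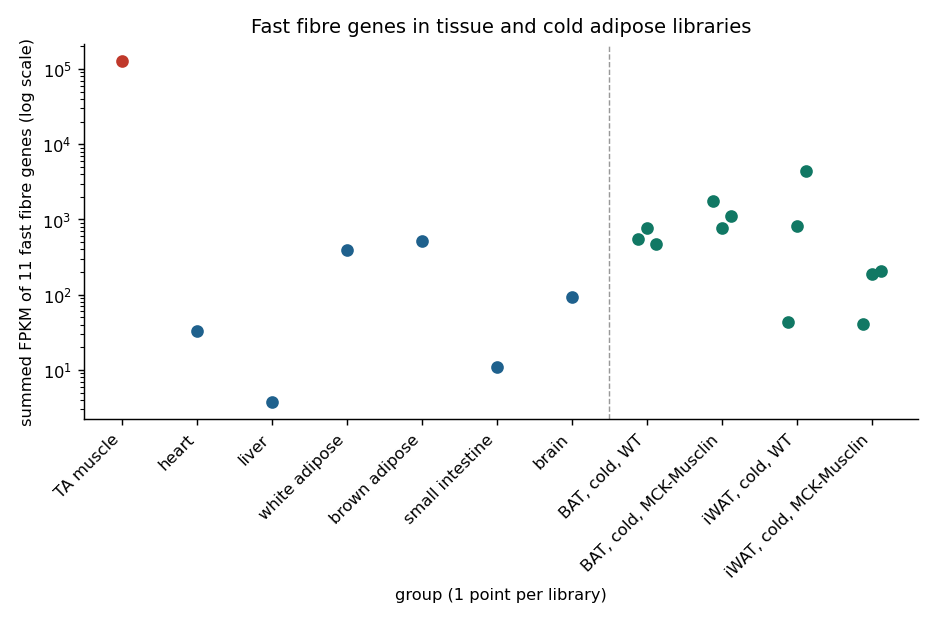
The summed FPKM (log scale) of the 11 fast fibre genes present in all 3 tables is plotted with 1 point per library, for the 7 tissues left of the dashed line and the 4 cold adipose groups of 3 libraries right of it, whose tables were normalized separately. Muscle stands at 127503 and no other library exceeds 4442, while the 3 WT iWAT libraries spread from 43.8 to 4442.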

How the data were processed

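FPKM values of 7 tissues of WT mice, 1 library each, and of 12 cold-exposed adipose libraries were analysed, and every column of per-library values was assigned to a sample. The authors filtered and aligned poly(A) RNA-seq reads to mm10 (GRCm38) without using strand and deposited FPKM per gene. The submitters' processing notes name fastp, Bowtie2 2.4.1, HISAT2 2.1.0 and Cuffdiff, whereas the study's methods name StringTie for the FPKM, so the tool behind the values is not certain. The iWAT table also holds the authors' own fold changes, p-values and FDR, which were not used. Of 55860 lines 287 repeat a gene, and each of 55573 genes was used once. Genes with a mean of at least 1 FPKM over the 7 libraries were kept, 1 was added to each value, and a 4-fold difference was the threshold. The members and lists were chosen with earlier results of these data known. Genes named are the 25 with the largest fold, the 10 with the lowest, the 15 most abundant and the list members, and any others were named after their values were seen. Depth was estimated from the steps between low FPKM values, and 95% intervals and the floor of 3 fragments cover counting error only. Annotation was GENCODE M21. Python 3.11.15, numpy 2.4.6, pandas 2.3.3, scipy 1.17.1 and matplotlib 3.10.9 were used, and the calling step was checked on simulated data. Alternatives were other added values, filters, scalings and thresholds, and leaving out heart or single libraries. Some listed genes are not reported here.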

Additional observations from a re-analysis of the deposited data

Results flagged for a closer look

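*Ostn* in BAT of MCK-Musclin mice stood out because those libraries lie outside the comparison of tissues and carried signal where the control libraries had none. The 3 MCK-Musclin libraries were at 37.9, 31.6 and 30.3 FPKM (mean 33.3 ± 4.06, SD, n = 3), and *Ostn* was listed at 0 in each of the 3 WT libraries. The lowest transgenic value, 30.3 FPKM, was above the 7.43 FPKM of the WT muscle library, although the tables were normalized separately. In iWAT *Ostn* was at 0, 5.17 and 4.21 FPKM in MCK-Musclin mice and at 0, 0 and 0.225 in WT mice. *Tnnc2* was at 552, 247 and 374 FPKM in the transgenic BAT libraries and at 180, 250 and 145 in the WT ones.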

How the results depend on the processing

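No paired analysis was possible because the results come from no test and each tissue has 1 library. The 128 higher genes became 213 with median-ratio scaling, 261 at 2-fold, 73 at 10-fold, 272 without heart and 77 among protein-coding genes whose exons overlap no other gene. The 15 lower genes became 369 and 741 with 0.1 and 0.01 added, 41 after rescaling to TPM, 8 with median-ratio scaling, 6 with quantile normalization, 504 at 2-fold, 0 at 10-fold, 131 without heart and 167 after rescaling to TPM without mitochondrially encoded genes. The 272 genes above the 5 tissues other than heart became 434 with median-ratio scaling, 414 at 2-fold, 162 at 10-fold and 154 among protein-coding genes without overlaps. The restriction to genes without overlaps and the scaling without mitochondrial genes were chosen after seeing the data. List members called rose from 59 to 113 without heart. Without mitochondrial genes the 10 and 100 most abundant genes held 41.1% and 65.5% of the muscle FPKM and the called genes 44.6%. Leaving out 1 cold library gave 126 to 127 genes in BAT and 78 to 79 in iWAT. The median over genes of log2 muscle against the mean log2 of the 6 other tissues was -0.82 with the FPKM as deposited. It moved by -0.21 with TPM, 0.52 with median-ratio scaling and 0.66 with quantile normalization. Of the folds of named genes under alternatives, 419 stayed on their side of the threshold, 24 fell short of it and 0 reversed. A changed filter or threshold cannot alter a fold, and most of these genes were picked for extreme folds, so nothing is read from this tally. The cause of the shifts between settings was not tested.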

Other observations

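Genes outside the muscle lists made up 69 of the 128, and those below were named after their values were seen. Position and T-box factors were among them. *Hoxc10*, a homeobox gene of the hind body, was at 55.1 FPKM in muscle and at most 0.89 in the other tissues of the comparison. In cold WT iWAT, however, it was at 27.8, 20.2 and 23.8 FPKM. *Lbx1*, a homeobox gene of migrating limb muscle precursors, was at 27.7 FPKM and at most 0.076 in the other tissues. *Tbx1* was at 15.8 FPKM against 1.57 in white adipose, and at 3.62, 1.84 and 1.73 in cold WT iWAT.

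Single genes of polyamine and energy metabolism were also among the 128, with no list behind them. *Amd1*, which makes the aminopropyl donor of polyamine synthesis, was at 284 FPKM in muscle and 30.6 in brain, and *Smox*, which oxidizes spermine, was at 97.7 and 14.1. *Amd2* and Amd-ps3 were at 17.8 and 33.1 FPKM, and as near copies of *Amd1* they may share its reads. The AMP-activated kinase subunits *Prkag3* and *Prkab2* were at 26.1 and 78.6 FPKM, 7.82-fold and 6.32-fold above the next tissue. *Mylk4*, a myosin light chain kinase family member, was at 1219 FPKM against 162 in heart.

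Of the 17 genes that are not protein coding, 2310065F04Rik had the largest fold, with 32.4 FPKM in muscle and 0 listed in each other tissue. *H19*, an imprinted RNA, was at 96.0 FPKM against 3.35 in heart. *Myhas* was at 30.2 FPKM against 0.148 in brain, but its exons overlap *Myh1* and reads were counted without strand.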
